A study of Mus musculus with 6 samples.

Results

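The type 2 cytokine cluster of mouse chromosome 11 holds Il4, Il13 and Il5, with Rad50 lying between Il13 and Il5 and Kif3a on the far side of Il4. The cytokine genes Csf2 and Il3 lie farther along the same chromosome. These 7 genes were found by symbol in the tables of all 6 libraries, out of 47606 genes listed there. Messenger RNA had been sequenced from 32D cells, a mouse myeloid progenitor line kept in medium with interleukin 3 (1 ng/mL, per the labels). In every library the cells carried dCas9-KRAB, a Cas9 that cannot cut fused to a repressor domain, delivered by lentivirus and followed by a week of puromycin. The groups were an empty vector without a guide (EV, 2 libraries), guide sg2 (2 libraries) and guide sg5 (2 libraries). Guide sequences and the number of clones behind the cultures were not given in the sources used here. A library titled as the second replicate of sg5 carries conflicting labels, its source name and genotype being those of sg2, and the title was followed. The cluster was chosen because Il4 stood higher with guides in earlier results of these data. The values of its 7 genes in guides against EV are therefore descriptions, given without a test.

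IL-4 and IL-13 are related cytokines of allergic and antiparasite immunity, made by T helper cells, mast cells, basophils and eosinophils. IL-5 drives eosinophil growth, and IL-3 and GM-CSF, the product of Csf2, support the growth of myeloid progenitors. In T cells the first 3 cytokine genes are opened together through a control region inside Rad50. GATA factors, STAT proteins and NFAT, a factor that carries calcium signals, are known to act on this locus. Rad50 itself encodes a DNA repair protein, and Kif3a a motor of intracellular transport that is also needed for cilia.

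The 250 bases before the start of 4 of these genes are printed here from RefSeq (build GRCm38.p6), because 2 of the genes, Il4 and Il13, had RNA in every library and the others, Il5 and Il3, had almost none. Entries were matched for 6 of the 7 members, all but Rad50. Il4 has 2 entries, and the one at the start of the annotated gene is shown. Capitals mark GGAAA, the core letters of NFAT sites, on either strand.
Il4 (chr11:53618666-53618915, minus strand): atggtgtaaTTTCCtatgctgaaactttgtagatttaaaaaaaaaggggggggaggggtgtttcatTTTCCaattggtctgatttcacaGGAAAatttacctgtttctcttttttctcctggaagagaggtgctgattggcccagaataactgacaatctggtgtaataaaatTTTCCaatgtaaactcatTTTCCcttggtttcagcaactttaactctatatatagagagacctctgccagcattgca
Il13 (chr11:53634703-53634952, minus strand): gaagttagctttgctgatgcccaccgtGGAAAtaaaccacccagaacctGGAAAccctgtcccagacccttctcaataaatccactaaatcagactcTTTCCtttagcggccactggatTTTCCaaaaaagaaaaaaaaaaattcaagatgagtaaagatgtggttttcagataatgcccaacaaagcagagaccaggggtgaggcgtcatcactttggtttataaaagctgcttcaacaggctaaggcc
Il5 (chr11:53720544-53720793, plus strand): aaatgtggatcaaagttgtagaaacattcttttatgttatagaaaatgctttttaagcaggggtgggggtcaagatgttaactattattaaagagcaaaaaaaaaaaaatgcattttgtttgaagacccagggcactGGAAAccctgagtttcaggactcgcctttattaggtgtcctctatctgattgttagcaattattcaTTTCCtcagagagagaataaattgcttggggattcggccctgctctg
Il3 (chr11:54267280-54267529, minus strand): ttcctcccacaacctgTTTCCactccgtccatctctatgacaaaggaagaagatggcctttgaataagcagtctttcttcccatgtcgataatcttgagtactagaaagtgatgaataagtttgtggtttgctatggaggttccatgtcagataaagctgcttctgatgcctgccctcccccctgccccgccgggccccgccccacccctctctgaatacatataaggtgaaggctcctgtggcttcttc
GGAAA was found 5 times before Il4, 4 times before Il13, 2 times before Il5 and 1 time before Il3. At least 1 match is common, being present in 55.6% of 32851 promoter windows of this length. The GATA letters AGATAA, searched on both strands, were found 1 time each before Il13 and Il3 (9.99% of windows). The STAT6 letters, TTC and GAA spaced by 4 bases, were found 1 time before Il4 (5.85% of windows), overlapping a GGAAA match. The C/EBP letters TTNNGNAA were found 1 time before Il4 and 2 times before Il13 (36.8% of windows), the matches before Il13 overlapping each other and a GGAAA match. These matches describe letters and not bound sites.

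The libraries held between 31700000 and 45600000 fragments as implied by their lowest values, and listed between 21239 and 21867 genes above 0. Cebpe, the gene named in the series title, lies on chromosome 14. Its level was 42.0 and 100 FPKM (fragment counts adjusted for transcript length and sequencing depth) in EV replicates 1 and 2. With guides it measured 14.4 and 18.7 for sg2, then 19.4 and 22.7 FPKM for sg5, or 26.4% of the EV mean. Libraries of the same replicate number were alike across groups, so values are also given within each number. The labels do not tie the replicates to separate cultures, and p-values here reflect only how far these samples spread, possibly for technical reasons. In bulk RNA, more cells that express a gene and more RNA per cell cannot be told apart.

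Of the 7 genes, 3 were transcribed at a mean above 1 FPKM. FPKM is a level per transcript length, so it can be compared between genes. Rad50 averaged 21.4 ± 2.18 FPKM (SD, n = 6), Kif3a 18.9 ± 1.19 FPKM, Il4 12.9 ± 4.65 FPKM and Il13 0.179 ± 0.145 FPKM. Rad50 was above Kif3a in 4 of 6 libraries, so the order of these neighbours was not fixed. Kif3a was above Il4 in 6 of 6 libraries, although their ranges over all libraries met, at 16.9 FPKM for the lowest Kif3a value and 17.1 FPKM for the highest Il4 value. Il4 was above Il13 in 6 of 6, by between 39.6 and 379 times. Il5 was above 0 in 1 library, and Il3 and Csf2 were listed at 0 in all 6. Of the cluster's cytokine genes, Il4 thus had RNA at a level of the same order as Kif3a and Rad50, and Il13, which lies between Il4 and Rad50, had a trace.

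**Figure D1:**
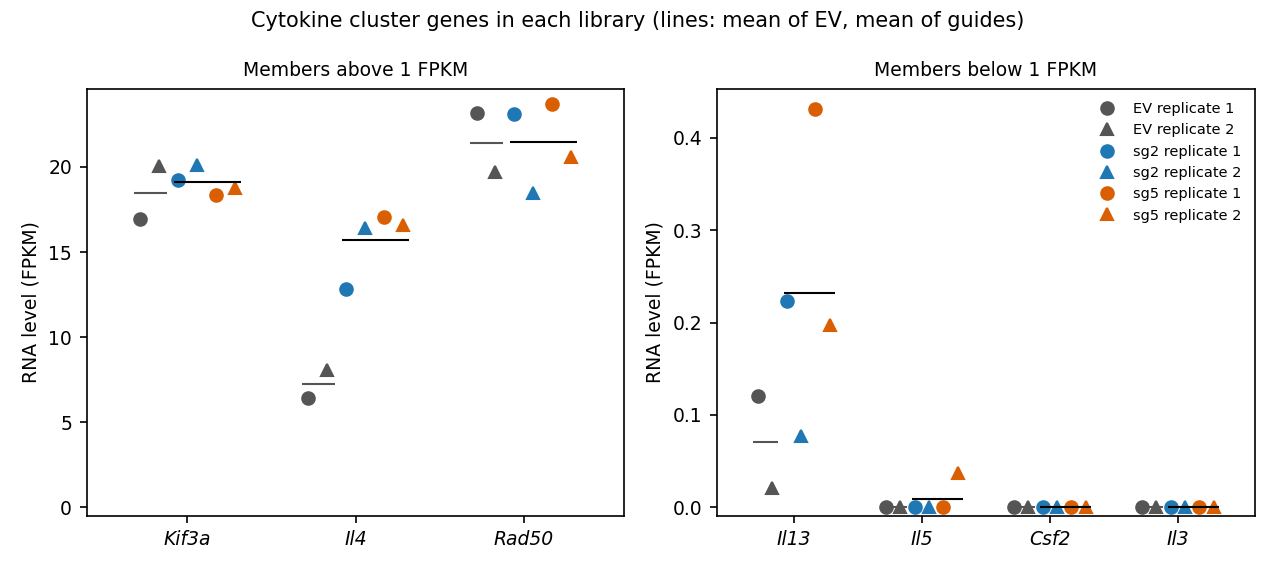
RNA level (FPKM, vertical axis) of the 7 genes in each library, with EV in grey, sg2 in blue, sg5 in orange, circles for replicate 1, triangles for replicate 2, and lines at the mean of the EV and of the guide libraries. The 4 guide libraries sit between 12.8 and 17.1 FPKM for Il4, above 6.44 and 8.06 FPKM in EV, while Kif3a and Rad50 overlap between groups. The right panel has a smaller scale, where Il13 reaches 0.431 FPKM.

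Il4 (ENSMUSG00000000869, GRCm38 chromosome 11, 53602982 to 53618669, minus strand) measured 6.44 FPKM in EV replicate 1 and 8.06 FPKM in EV replicate 2. It measured 12.8 and 16.4 FPKM in sg2 replicates 1 and 2, and 17.1 and 16.6 FPKM in sg5 replicates 1 and 2. All 4 guide libraries lay above both EV libraries, and the lowest of them was sg2 replicate 1. Such a separation upward was found for 2.54% of the 12929 genes averaging at least 1 FPKM, and nothing is read from this share, since Il4 was chosen on this contrast. The mean over guides, 15.7 ± 1.96 FPKM (SD, n = 4), was 2.17 times that of EV, 7.25 ± 1.15 FPKM (SD, n = 2). Within replicate numbers 1 and 2, sg2 stood at 1.99 and 2.03 times EV and sg5 at 2.65 and 2.06 times. On the scale of log2(FPKM + 1), used for every log2 difference here, guides minus EV was 1.02 (SE 0.17), with 1.09 within number 1 and 0.95 within number 2. By the size of this difference Il4 ranked 148 of 12929 genes. No other annotated gene overlaps Il4, which has 4 annotated transcripts, and the tables do not separate these.

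Il13 (ENSMUSG00000020383, chromosome 11, 53631324 to 53634702, minus strand) starts 16.0 kb from the start of Il4 on the same strand. Its level was 0.121 and 0.0213 FPKM in EV replicates 1 and 2, 0.223 and 0.0771 with sg2, and 0.431 and 0.198 FPKM with sg5. Each guide library was above the EV library of its own number (4 of 4), but sg2 replicate 2 was below EV replicate 1, so the groups overlapped. Guide libraries of the same number share an EV library, and the share of all genes with this pattern was not counted. Il13 has 1 annotated transcript, and its values lie within 0.15 of whole fragments in all 6 libraries, which allows the fragments to be counted. These came to 4 and 1 fragments in EV, 9 and 3 with sg2, and 14 and 8 with sg5.

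Per fragment sequenced, Il13 in sg2 stood at 1.84 times the EV library in number 1 (95% exact interval 0.513 to 8.17). In number 2 it stood at 3.58 times (0.288 to 188). For sg5 the ratio was 3.57 in number 1 (1.12 to 14.9) and 9.30 in number 2 (1.25 to 412). These intervals show how coarse such low counts are: they cover counting error only, leave out the spread between libraries, and are no test of the guides. Il13 thus stood above EV within each replicate number, as Il4 did, at a level where 1 fragment is worth between 0.0214 and 0.0309 FPKM. A joint change of Il4 and Il13 is not read from this. Whether the differences of Il4 and Il13 are unequal was not tested, since both genes were chosen with this contrast in view.

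Il5 (ENSMUSG00000036117, chromosome 11, 53720794 to 53725106, plus strand) was listed at 0 in 5 libraries and at 0.0374 FPKM in sg5 replicate 2, which corresponds to 2 fragments. For this gene 3 fragments would give between 0.0484 and 0.0700 FPKM, so differences between groups smaller than about that were not detectable at this depth. Il3 (ENSMUSG00000018914, 54265303 to 54267277, minus strand) and Csf2 (ENSMUSG00000018916, 54247271 to 54249667, minus strand) were listed at 0 in all 6 libraries. A level of 3 fragments would be between 0.146 and 0.213 FPKM for Il3 and between 0.106 and 0.154 FPKM for Csf2. The cells, which are grown in added IL-3, thus had no listed RNA for that cytokine with or without a guide. A listed 0 can come from the estimate itself: of 30 widely expressed genes looked at, 29 were above 0 in every library and Jun was listed at 0 in all 6. The antisense genes annotated over Il5 and Csf2 (Gm12214 and Gm12223) were also listed at 0.

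For Rad50 and Kif3a the groups overlapped. Rad50 (ENSMUSG00000020380, chromosome 11, 53649519 to 53707319, minus strand) gave 23.2 and 19.7 FPKM with EV, 23.1 and 18.4 with sg2, and 23.7 and 20.6 with sg5. In all 3 groups the first replicate was the higher one, and guides overlapped EV. Its log2 difference was 0.00077 (SE 0.15). Kif3a (ENSMUSG00000018395, 53567379 to 53601967, plus strand), whose 3′ end faces that of Il4, gave 16.9 and 20.0 FPKM with EV, 19.2 and 20.1 with sg2, and 18.4 and 18.8 with sg5. Its log2 difference was 0.05 (SE 0.12), with 0.14 within number 1 and -0.04 within number 2.

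Of 18 protein-coding neighbours picked on both sides of the cluster 9 had a mean of at least 1 FPKM, and Slc22a4 and Pdlim4 were listed at 0. The list is not complete. It left out Gm12216, a protein-coding gene next to Irf1, named after its values were seen, with a mean of 5.86 FPKM. That gene gave 4.51 and 8.58 FPKM with EV and 3.99 to 7.77 FPKM across the guide libraries, with overlap. The median log2 difference of the 9 listed neighbours was -0.04, against -0.0046 over all genes tested, with 4 positive and 5 negative values (6297 and 6632 over all genes). In limma none of them rose or fell at an adjusted p of 0.05, where 0.00% of all genes did so (0 of 12929, and 169, or 1.31%, at an unadjusted p under 0.05). With the replicate number as a block, limma called 5 genes (0.0387%) of all, none of them among the 9, and 739 (5.72%) passed at an unadjusted p under 0.05, 1 of the 9 among them. Sept8, a septin gene beyond Kif3a, gave 63.9 and 62.3 FPKM with EV and 65.5 to 73.5 FPKM across the guide libraries. It was above EV in every library, as 2.54% of all genes were (log2 difference 0.14, SE 0.11). Rapgef6, a gene for a small GTPase activator at the other end of the window, gave 18.1 and 21.3 FPKM with EV and 15.8 to 17.5 FPKM across the guide libraries (log2 difference -0.25, SE 0.12), below EV in every library (2.56% of all genes were). Irf1, an interferon response factor beside Il5, gave 33.7 and 43.1 FPKM with EV and 33.9 to 48.9 FPKM across the guide libraries.

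**Figure D2:**
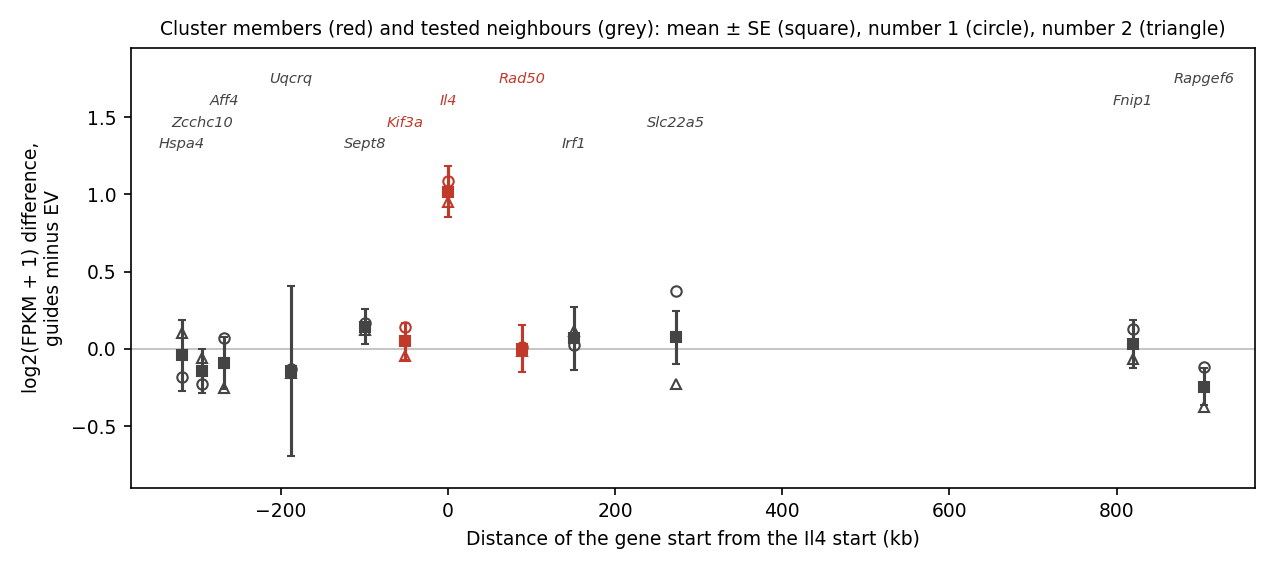
Log2(FPKM + 1) difference of guides minus EV (vertical axis) against the distance of each gene's start from that of Il4 in kb (horizontal axis), for Il4, Kif3a and Rad50 in red and 9 neighbours in grey. Squares with bars are the mean and SE from limma, open circles replicate number 1 and open triangles number 2. Il4 is at 1.02, and the other means lie between -0.25 and 0.14.

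The guides were then compared with each other, a contrast that did not serve to choose the genes. Il4 had a log2 difference of 0.20 (SE 0.20) for sg5 minus sg2, with a limma adjusted p of 1.00. Rad50 (0.09, SE 0.20) and Kif3a (-0.08, SE 0.16) also had a limma adjusted p of 1.00. These SEs, from the fit without the replicate block, take in the step between replicate numbers. With the block the SE was 0.12 for Il4, 0.08 for Rad50 and 0.09 for Kif3a. The limma adjusted p was then 0.854, 0.874 and 0.903. Over all genes 0.00% were called between the guides by limma (0 of 12929, and 111, or 0.859%, at an unadjusted p under 0.05), also 0.00% with the replicate block (684, or 5.29%, unadjusted). With the second sg5 library counted as sg2, as its source name has it, the Il4 value was 0.16, and over all alternatives it lay between 0.03 and 0.38. Against EV alone, sg2 gave Il4 a log2 difference of 0.92 (SE 0.20) and sg5 1.12 (SE 0.20), values that share the EV libraries. Over all genes limma called 0.00773% for sg2 against EV and 0.00% for sg5 against EV (0 genes, and 176, or 1.36%, unadjusted), or 0.0232% and 0.0155% with the replicate block.

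Replicate number 2 was also set against number 1, with the group as a term. Limma called 47.1% of all genes in this contrast. Rad50 was lower in number 2 in 3 of 3 groups, by a log2 difference of -0.24 (SE 0.06, limma adjusted p = 0.0363), a call shared with 26.9% of all genes called lower. That call was lost under 12 of 13 alternatives, each left-out library among them, at a limma adjusted p of up to 0.435, with a negative value in each. Il4 (0.19, SE 0.10, limma adjusted p = 0.177) and Kif3a (0.11, SE 0.07, limma adjusted p = 0.285) did not pass. Both passed when libraries were scaled to the same sum of protein-coding genes, which moved the median of all genes from -0.04 to 0.12 (Il4 0.36, limma adjusted p = 0.0391, and Kif3a 0.28, 0.0317). Il4 also passed with the second sg5 library counted as sg2 (0.32, limma adjusted p = 0.0299).

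Beyond the cluster, 53 other cytokine and chemokine genes show which signals the cells transcribe. By its mean over the 6 libraries Il4 ranked 9 of 58 once the 5 cluster cytokines were added, and the rank moved with the group, being 11 on the EV mean and 8 on the guide mean. Above it stood Mif (791 FPKM), a pleiotropic inflammatory factor, the chemokine genes Ccl9 (253 FPKM) and Ccl6 (179 FPKM), and Tgfb1 (134 FPKM). Il13 ranked 28 (31 on the EV mean and 26 on the guide mean), and 14 of the 53 were listed at 0, among them Il9, Il31 and Il33, which are also tied to type 2 responses. These last 3 were chosen after their values were seen. Of the 20 genes averaging at least 1 FPKM, 0 rose and 0 fell in guides against EV by limma without or with the replicate block. At an unadjusted p under 0.05 there were 0 and 0, against 1.31% and 5.72% of all genes. None had guide libraries all above or all below EV, where 2.54% and 2.56% of all genes did, so few would be looked for among 20. Their median log2 difference was 0.04. Il1b, the gene of an inflammatory cytokine, gave 6.27 and 4.68 FPKM with EV and 6.19 to 12.7 FPKM across the guide libraries (log2 difference 0.60, SE 0.27). Tnf gave 3.49 and 2.68 FPKM with EV and 1.71 to 3.10 FPKM across the guide libraries (-0.42, SE 0.25). Osm, a cytokine of the IL-6 family, gave 4.83 and 3.78 FPKM with EV and 4.31 to 7.81 FPKM across the guide libraries (0.39, SE 0.25).

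**Figure D3:**
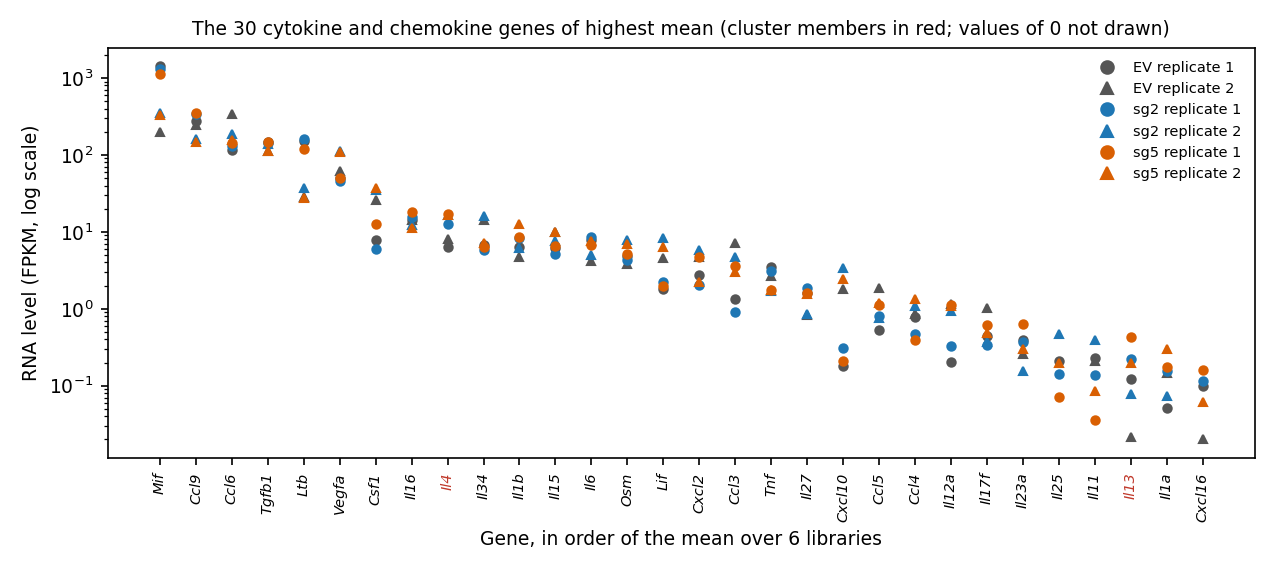
RNA level (FPKM, log scale on the vertical axis) in each library for the 30 cytokine and chemokine genes of highest mean, in that order, with cluster members named in red. Il4 is 9 of 58 with a mean of 12.9 FPKM and Il13 is 28 of 58 with 0.179 FPKM, and values of 0 are not drawn.

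The receptors of these cytokines were transcribed unevenly. Il4ra, the IL-4 binding chain, gave 16.3 and 21.3 FPKM with EV and 12.6 to 23.2 FPKM across the guide libraries. Il2rg, the common gamma chain that pairs with it, gave 73.5 and 47.2 FPKM with EV and 47.9 to 75.5 FPKM across the guide libraries. Il13ra1, the partner chain of the other IL-4 receptor and named after its values were seen, did not exceed 0.035 FPKM in any library. Il5ra and Csf2ra, receptor genes for IL-5 and GM-CSF also named after their values were seen, reached at most 0.232 and 0.236 FPKM. Il3ra, the IL-3 binding chain, gave 33.5 and 45.4 FPKM with EV and 38.4 to 61.8 FPKM across the guide libraries. Csf2rb and Csf2rb2, signalling chains of the IL-3 receptor whose near-identical reads make them uncertain, measured 139 and 69.5 FPKM and 67.2 and 29.8 FPKM in EV. With guides they measured between 95.1 and 197 FPKM and between 42.0 and 109 FPKM. Of 9 receptor genes 5 were tested, with a median log2 difference of 0.31, and in limma 0 rose and 0 fell (0 at an unadjusted p under 0.05, and 3 with the replicate block, which called 0, against 1.31% and 5.72% of all genes at that p).

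Most signalling genes below the receptors were transcribed. Of 12 JAK, STAT and adaptor genes 10 were tested, all 10 with positive log2 differences and a median of 0.09, where 6297 of all 12929 genes were positive. Limma called 0 of them without or with the block (0 and 2 at an unadjusted p under 0.05, against 1.31% and 5.72% of all genes). Stat5b, which carries the IL-3 signal, gave 37.8 and 37.7 FPKM with EV and 41.2 to 48.3 FPKM across the guide libraries. It was above EV in every library, as 2.54% of all genes were (log2 difference 0.22, SE 0.12). Stat6, which carries the IL-4 signal, gave 39.1 and 27.3 FPKM with EV and 33.4 to 44.6 FPKM across the guide libraries, with overlap. Of 22 genes known to follow IL-4 and STAT6 in macrophages, B cells or T cells, 19 had a mean below 1 FPKM, and Retnla, Chil3 and Pparg among these were listed at 0. The 3 tested were Tgm2, Bcl6 and Cish, with log2 differences of -0.07 (SE 0.81), 0.19 (SE 0.84) and -0.13 (SE 0.19). These SEs, from the fit without the block, take in the step between numbers. Within numbers 1 and 2 the differences were -0.14 and 0.0004 for Tgm2, 0.33 and 0.04 for Bcl6, and -0.19 and -0.07 for Cish. Limma called 0 of the 3 genes without or with the block (0 and 0 at an unadjusted p under 0.05, against 1.31% and 5.72% of all genes). All 3 were higher in replicate number 2 (limma, 3 of 3 called, against 20.2% of all genes called higher). Tgm2, a transglutaminase gene, measured between 76.0 and 86.5 FPKM in number 1 and between 288 and 306 FPKM in number 2.

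Among 36 transcription factor genes tied to the Il4 locus, 27 were tested, 21 with positive and 6 with negative log2 differences (median 0.09), against 6297 and 6632 of all genes. Limma called 0 of the 27 without or with the block (1, Cebpe, at an unadjusted p under 0.05, and 5 with the block, against 1.31% and 5.72% of all genes). Cebpe, the gene named in the series title and lower with guides, is also 1 of the 5. Nothing about the list is read from its place in these counts. Gata2, the GATA factor of progenitors, mast cells and basophils, was the most abundant, at 384 and 437 FPKM with EV and 406 to 585 FPKM across the guide libraries (log2 difference 0.22, SE 0.19), with overlap. Gata1 was low, at 0.67 and 1.17 FPKM with EV and 1.25 to 1.79 FPKM across the guide libraries. It was above EV in every library, as 2.54% of all genes were (log2 difference 0.43, SE 0.24). Gata3, the T cell member named after its values were seen, did not exceed 0.34 FPKM. Cebpa, a granulocyte factor related to Cebpe, measured 32.2 and 136 FPKM in EV, and 44.3, 216, 70.2 and 208 FPKM with guides, the high values all falling in replicate number 2. Ikzf1, which encodes Ikaros, gave 3.25 and 1.34 FPKM with EV and 0.82 to 1.44 FPKM across the guide libraries (log2 difference -0.61, SE 0.32). Of 13 chromatin factor genes, all tested, 3 had positive and 10 negative log2 differences (median -0.03), against 6297 and 6632 of all genes. Limma called 0 of the 13 without or with the block (0 and 0 at an unadjusted p under 0.05, against 1.31% and 5.72% of all genes). Mbd2, a reader of methylated DNA known to silence Il4, gave 61.2 and 76.1 FPKM with EV and 56.2 to 62.1 FPKM across the guide libraries (log2 difference -0.21, SE 0.14).

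Markers of cells known to make IL-4 were examined beside it. Of 15 mast cell and basophil genes 8 averaged at least 1 FPKM and 7 did not. The most abundant, Fcer1a, the IgE receptor chain, measured 1081 and 2412 FPKM in EV replicates 1 and 2. With guides it measured 1733 and 2520 for sg2, then 2495 and 2767 FPKM for sg5. Summed over the 15 genes of this list, the level was 1565 and 3096 FPKM with EV and 2269 to 3648 FPKM across the guide libraries, while Kit, Mcpt1 and Mcpt4, markers of mast cells, were listed at 0. Log2 differences were positive for 7 of 8 tested genes (6297 of 12929 over all genes), with 0.46 as their median (0.64 in number 1 and 0.30 in number 2), and limma called 0 without or with the block (0 and 1 at an unadjusted p under 0.05, against 1.31% and 5.72% of all genes). Ms4a2, another chain of the IgE receptor, gave 6.13 and 4.90 FPKM with EV and 6.51 FPKM or more across the guide libraries. It was above EV in every one, as 2.54% of all genes were (log2 difference 0.39, SE 0.20). Cpa3, the mast cell carboxypeptidase, gave 80.5 and 217 FPKM with EV, 110 and 247 with sg2, and 191 and 313 with sg5. Prss34, a basophil protease, gave 0.27 and 15.6 FPKM with EV, 1.15 and 63.6 with sg2, and 2.29 and 70.1 with sg5. It was low in number 1 and high in number 2 in each group. The log2 difference was 1.55, with 1.07 within number 1 and 2.03 within number 2. Its SE of 1.88, from the fit without the block, takes in the step between numbers. Within replicate numbers the guide libraries of Prss34 stood at 4.09 to 8.49 times EV, above the ratios of Il4 in every pair. Each guide library was also above EV of its own number for Fcer1a, Gata2, Ms4a2 and Cpa3. The lowest ratios were near 1, at 1.04 for Fcer1a in sg2 replicate 2 and 1.06 for Gata2 and Ms4a2 in sg2 replicate 1. Other tested genes of the list, 1 of them with a negative log2 difference, were not compared in this way. The share of all genes with this pattern was not counted. The part of the marker genes' levels in the Il4 result was not tested.

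Among eosinophil genes most of the summed level was that of Epx, and 7 of the 9 averaged below 1 FPKM. Epx, the eosinophil peroxidase gene, gave 75.5 and 253 FPKM with EV, 8.77 and 55.1 with sg2, and 35.1 and 61.6 with sg5. It was below EV in every library, as 2.56% of all genes were. Its log2 difference was -2.06 (SE 0.86, limma adjusted p = 1.00, or 0.646 with the replicate block). Within numbers 1 and 2 the difference was -2.03 and -2.10. The 9 eosinophil genes summed to 81.8 and 262 FPKM in EV and to between 12.2 and 67.8 FPKM with guides, and Ear1, Ear2 and Ear6 were listed at 0. Siglecf, the other one tested, overlapped between groups. The 13 T cell and innate lymphoid genes summed to 7.13 and 7.27 FPKM in EV and to between 6.24 and 6.57 FPKM with guides, with Cd3e and Cd28 listed at 0. In that list 10 of the 13 averaged below 1 FPKM, and the 3 tested overlapped between groups. Granulocyte progenitor genes were abundant in every library, their 10 genes summing to 1004 and 1087 FPKM in EV and to between 941 and 1229 FPKM with guides. Among them Ms4a3 measured between 344 and 473 FPKM and Prtn3, the proteinase 3 gene, between 234 and 372 FPKM over all libraries. Gfi1, a repressor needed for granulocyte development, gave 8.83 and 7.31 FPKM with EV and 4.14 to 4.72 FPKM across the guide libraries (log2 difference -0.75, SE 0.14, limma adjusted p = 0.996). In limma 0 genes of these 3 lists rose or fell without or with the block (1 at an unadjusted p under 0.05, Gfi1, and 1 eosinophil, 1 T cell and 2 granulocyte genes with the block, against 1.31% and 5.72% of all genes).

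**Figure D4:**
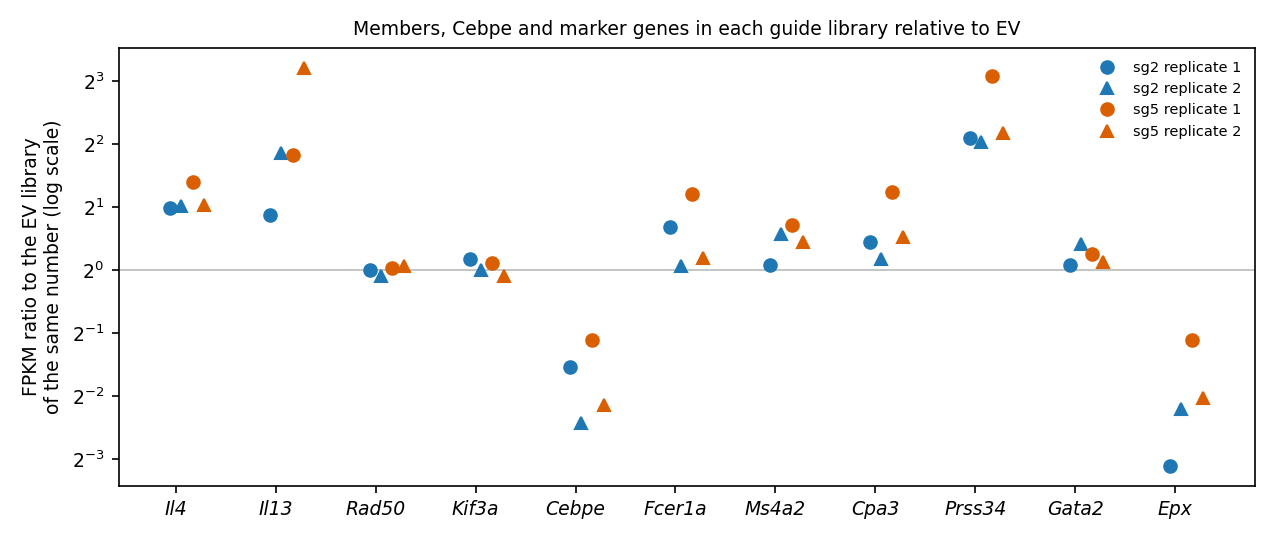
FPKM of each guide library divided by that of the EV library of the same replicate number (vertical axis, log scale), for cluster genes, Cebpe and marker genes, with sg2 in blue, sg5 in orange, circles for number 1 and triangles for number 2. Il4 lies between 1.99 and 2.65, Rad50 between 0.937 and 1.05, Kif3a between 0.936 and 1.14 and Cebpe between 0.186 and 0.462. The marker genes shown are only a part of their lists.

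The genes whose pattern over the 6 libraries was most like that of Il4 were Vezt, Pakap, Tnfsf13os, Gm7206 and Khdrbs2, by Pearson correlation of log2(FPKM + 1) among 12929 genes. Their r was 0.97, 0.97, 0.97, 0.97 and 0.96, over 6 points that share their libraries and the choice of Il4. Vezt, which encodes a cell junction protein, gave 13.9 and 14.3 FPKM with EV and 15.2 to 16.2 FPKM across the guide libraries, a far smaller step than that of Il4. Khdrbs2, the gene of an RNA binding protein, gave 1.05 and 1.36 FPKM with EV and 2.77 to 3.49 FPKM across the guide libraries. Tnfsf13os, an antisense RNA gene, gave 4.70 and 5.83 FPKM with EV and 7.40 to 9.19 FPKM across the guide libraries. Within the cluster r with Il4 was 0.55 for Il13, 0.39 for Kif3a and -0.15 for Rad50.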

How the data were processed

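The authors deposited 1 table per library, whose values are FPKM per the file headers. Per the submitters' processing notes kallisto 0.43.0, DESeq2 and the builds GRCm38 and mm10 were used, without the step that gave the FPKM. The deposited positions placed 100% of entries on chromosome 1, so positions come from GENCODE M21 (GRCm38), which matched 47187 of 47606 gene IDs. Whether counting used strand was not given in the sources used here.

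From these files log2(FPKM + 1) was tested with limma 3.58.1 (R 4.3.3, intensity trend) on the 12929 genes averaging at least 1 FPKM, which 3 of the 7 members passed, with Benjamini-Hochberg adjustment over all of them and a threshold of 0.05. Count models were not run, since the files hold no counts. Guides were 1 group of 4 libraries against 2 EV libraries. A fit with 3 groups gave each guide, and a fit with group and replicate number gave number 2 against 1. The fits were also run on simulated data with known changes, and no result here rests on that run. Tables, intervals and plots came from Python 3.11.15 with scipy 1.17.1, pandas 2.3.3, matplotlib 3.10.9 and numpy 2.4.6.

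Depth was taken from low values of genes with a single transcript over 4000 nt, and fragment length from shorter ones. Of the low values between 92.1% and 97.7% lay within 0.15 of whole fragments. Intervals and limits from them cover counting error only.

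Differences between replicates 2 and 1 correlated between groups at 0.611, 0.591 and 0.583 across genes, and 6 of 6 libraries correlated best with one of their own number. The numbers were therefore taken to pair libraries, on the strength of the data rather than the labels. The test fixed in the design has no block, and blocked counts stand beside its own. The SE of a difference between groups given for a gene is from the fit without the block, unless the block is named. Without the block it takes in the step between replicate numbers.

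The members and gene lists were chosen with earlier results of these data known. Named genes are the 7 members, Cebpe, the tested neighbours, up to 4 genes of smallest p and 4 of highest mean per list, and the 5 most like Il4. Alternatives were another pseudocount (0.1 or 0.01), no filter, 2 scalings, the block, no trend, the other grouping of the second sg5 library, and leaving out each library.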

Additional observations from a re-analysis of the deposited data

Results flagged for a closer look

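Among the 69 genes checked for 1 guide library far from the other guide libraries, 4 had such a library, or 3 apart from Il5, where chance gives about 1 in 20 groups. Over 69 genes that rate gives about as many as were found. Il4 in sg2 replicate 1 measured 12.8 FPKM, against 16.4 to 17.1 FPKM in the other guide libraries. Il5 in sg5 replicate 2 measured 0.0374 FPKM, with the others listed at 0, where any value above 0 would stand apart, and it rests on 2 fragments. Tnf in sg2 replicate 1 measured 3.10 FPKM, against 1.71 to 1.77 FPKM in the others. Siglecf, a receptor gene of eosinophils, measured 3.31 FPKM in sg2 replicate 1, against 5.64 to 5.90 FPKM in the others. The readings of Il4, Tnf and Siglecf are all from sg2 replicate 1.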

How the results depend on the processing

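The Il4 difference of guides minus EV kept its direction under all 19 alternatives, between 0.87 and 1.16 on the log2 scale, and that of Il13 stayed positive, at 0.91 with a pseudocount of 0.1 and 1.70 with 0.01, against 0.20 with 1. The Kif3a and Rad50 values of guides minus EV took both signs, between -0.07 and 0.16 and between -0.11 and 0.11.

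Counts of genes called by limma moved more. For guides against EV the count of 0 became 28 with a pseudocount of 0.01 and no filter, 6 with no filter, 5 with the replicate block and 4 with no trend, and leaving out 1 library, with or without the block, gave between 0 and 2, with 1 call without sg2 replicate 1 and 2 in the blocked fit without it or without sg5 replicate 1. For sg2 against EV the count of 1 became 0 with no filter, 3 with the replicate block and 0 with the second sg5 library counted as sg2, and leaving out 1 library gave between 0 and 1. For sg5 against EV the count of 0 became 18 with no filter and 2 with the replicate block. Between the guides the count of 0 became 23 with no filter. For replicate number 2 against 1 the count of 6089 lay between 3205 and 4365 when 1 library was left out. The cause was not tested. The replicate block changed no call of a listed gene in guides against EV, and none of a member between the guides. Il13 rests on 1 to 14 fragments a library and Il5 on 2 fragments in 1 library, so depth limits these values.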
